A study of Mus musculus with 12 samples.

Results

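Excitatory neurons of the cerebral cortex are arranged in layers, and each layer is marked by transcription factors that set the identity of its neurons during development and stay on in the adult. The 9 genes described here comprise such factors and regulators that cortical excitatory neurons carry more broadly, and are together called layer factors below. Cux1, Cux2 and Rorb mark the upper layers (Cux1 and Cux2 layers II to IV, Rorb layer IV), Fezf2 and Bcl11b (also called CTIP2) the deep neurons of layer V that project out of the cortex, and Tbr1 mainly layer VI, whose neurons project to the thalamus. Bcl11a, a relative of Bcl11b, Neurod6 and Lmo3 are carried by cortical excitatory neurons more broadly. The 9 genes were taken by symbol from the 15759 entries of the deposited table, and all 9 were found and passed the filter on low counts.

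The samples were whole cortex and whole cerebellum of 12-week-old mice on a C57BL/6J background, either SCA1 KI or wild-type (WT) littermates. SCA1 KI mice (Atxn1 154Q/2Q) are a model of spinocerebellar ataxia type 1, in which one allele of Atxn1 encodes a tract of 154 glutamines and the other the mouse tract of 2. The knock-in allele sits in the gene itself and is present in every cell. The 4 groups (2 regions by 2 genotypes) had 3 libraries each of poly-adenylated RNA, which were described as biological replicates and are named here by the letter or number of their columns: B, C and D for WT cortex, A, E and F for SCA1 KI cortex, 2, 4 and 6 for WT cerebellum and 1, 3 and 5 for SCA1 KI cerebellum. The study's text describes the cerebellar libraries as an earlier data set of the same laboratory, so region and data set cannot be told apart. Male mice are given by the labels and both sexes together by the study's methods.

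All values are normalized counts, which are the reads of a gene divided by the size factor of the library. Between 29520855 and 51311309 reads per library fell on genes. Groups were compared with limma on log2(normalized count + 1) over all 12 libraries and 15369 tested genes. Each gene had a single estimate of spread over all groups, so scatter in either region enters the standard errors of both. A gene passed the test at an adjusted p (Benjamini-Hochberg) under 0.05 with an absolute log2 fold change (LFC) over 0.25, and LFCs of genes with few counts come out too small because of the added 1. The tissue labels held at the following markers. Emx1, a homeodomain factor of the cortex, read 524 to 1143 in the cortex libraries and 0 to 5.81 in the cerebellar ones. The sum of 7 granule cell genes was 139892 to 200133 in the cerebellum and 3804 to 4732 in the cortex. Other forebrain genes, such as Nrgn and Emx2, were read in the WT cerebellum and are given below. Atxn1 itself did not pass the test in the cortex (LFC −0.31, standard error 0.13, adjusted p = 0.132) or the cerebellum (LFC 0.08, standard error 0.13, adjusted p = 0.837), and its exons share 375 bases with Gmpr on the other strand.

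Some libraries stood apart from the others of their group. WT cortex library B had the highest sums of the striatal list (28254, against 13360 and 15233 in the other WT libraries and 8908 to 16341 in SCA1 KI), of the oligodendrocyte list (125999, against 72896 to 90175) and of the choroid plexus list (1660, against 192 to 306). WT cerebellar library 2 had the lowest sum of the granule cell list (139892, against 190954 to 200133) and the highest of the oligodendrocyte list (250154, against 139174 to 182095). Among the SCA1 KI cortex libraries, A was the most distant by its counts (chi-square divided by genes 32.2 and 35.6 against E and F, and 10.3 between E and F), with the lowest sum of the 6 cortex libraries in 8 of the 16 lists beside the 9 factors and the highest of the midbrain list (1771, against 984 and 1663 in E and F and 394 to 531 in WT). Library F had a higher sum of the list of forebrain inhibitory neurons than the other SCA1 KI libraries (40233, against 29155 and 29551, with 38500 to 41315 in WT). Among the SCA1 KI libraries the midbrain genes Pou4f1, Tal1 and Gata2 were highest in A, and the others of that list in F. Th read 561 in F, against 110 and 34.4 in A and E, and Gata3 46.0, against 1.97 and 2.02. The thalamic gene Calb2 read 2000 in F, against 624 and 340. The choroid plexus sum ran from 747 to 74635 over the 6 cerebellar libraries, and the genotypes overlapped. No label gives a date, batch or litter of these libraries, and counts of calls that moved by over 1.5 times without B, A, F or 2 are given below also without that library. As bulk tissue was sequenced, fewer cells of a type and less RNA per cell cannot be told apart.

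The promoters of the 3 upper-layer factors are printed first, because these factors were the members that passed the limma test as lower in the SCA1 KI cortex. The sequences are from RefSeq (GRCm38.p6) and cover the 250 bases before an annotated start, 5′ to 3′ on the strand of the gene, with CG dinucleotides in capitals. All 9 members matched, with 11 starts between them. The Cux1 promoter (chr5:136565982-136566231, minus strand) holds 18 CG dinucleotides, the one at the upstream Cux2 start (chr5:122049852-122050101, minus strand) holds 40, and the one at the upstream Rorb start (chr19:19111197-19111446, minus strand) holds 18.
Cux1: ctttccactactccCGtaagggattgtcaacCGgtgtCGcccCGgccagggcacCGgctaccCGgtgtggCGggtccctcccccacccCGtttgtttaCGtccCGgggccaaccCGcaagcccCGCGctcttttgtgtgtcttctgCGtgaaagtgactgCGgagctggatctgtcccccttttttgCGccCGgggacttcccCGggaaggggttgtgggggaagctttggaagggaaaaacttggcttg
Cux2: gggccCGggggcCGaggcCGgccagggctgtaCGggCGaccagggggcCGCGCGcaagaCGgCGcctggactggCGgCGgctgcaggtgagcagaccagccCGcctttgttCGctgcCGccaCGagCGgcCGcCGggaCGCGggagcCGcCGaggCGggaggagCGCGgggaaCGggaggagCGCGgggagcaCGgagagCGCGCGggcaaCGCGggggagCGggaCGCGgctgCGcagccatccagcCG
Rorb: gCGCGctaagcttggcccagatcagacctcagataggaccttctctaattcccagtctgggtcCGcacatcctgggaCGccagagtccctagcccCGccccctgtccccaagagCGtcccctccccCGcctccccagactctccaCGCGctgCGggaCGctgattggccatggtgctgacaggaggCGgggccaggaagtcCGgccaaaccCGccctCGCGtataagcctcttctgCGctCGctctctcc
The median over all 32851 promoters of this length is 6 CG dinucleotides, and 98.7% of them hold fewer than the Cux2 promoter. The second annotated starts of Cux2 and Rorb hold 3 and 4. Among the members that did not pass the test in the cortex, Bcl11a has 16, Fezf2 14, Bcl11b 9, Lmo3 6, Tbr1 5 and Neurod6 3.

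Ataxin-1 binds the repressor Capicua, which recognises short octamers. The octamers TGAATGAA, TGAATGGA, TCAATGAA and TCAATGGA were searched on both strands of the 11 promoters. One promoter, that of Neurod6 (chr6:55681264-55681513, minus strand), held one of them, shown in capitals.
Neurod6: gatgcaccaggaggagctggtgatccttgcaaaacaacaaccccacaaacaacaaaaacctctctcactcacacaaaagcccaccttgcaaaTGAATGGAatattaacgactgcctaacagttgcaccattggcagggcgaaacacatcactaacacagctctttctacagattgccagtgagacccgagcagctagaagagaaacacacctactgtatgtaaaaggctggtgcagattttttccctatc
Of all 32851 promoters, 3.19% held at least one of these octamers. A match describes the letters of this window and not a bound site.

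In the WT cortex the members ranged widely in level. Per kilobase of exon, Neurod6, a basic helix-loop-helix factor of maturing excitatory neurons, was highest at 1594 ± 321 normalized counts (SD, n = 3), followed by Tbr1 at 1459 ± 51.7 and Lmo3, a LIM-only cofactor, at 811 ± 136. Cux2 stood at 542 ± 24.3, Rorb at 435 ± 20.1, Bcl11b at 417 ± 74.4, Bcl11a at 343 ± 22.6, Fezf2 at 332 ± 41.4 and Cux1 at 302 ± 17.7 per kilobase. Neurod6 and Tbr1 overlapped in range, as did each neighbouring pair from Rorb down to Cux1, whereas Lmo3 lay apart from both of its neighbours.

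In the SCA1 KI cortex the top of this order was kept, with Neurod6 at 1453 ± 196, Tbr1 at 1108 ± 106 and Lmo3 at 905 ± 219 normalized counts per kilobase. Below them came Bcl11b at 393 ± 148, Cux2 at 349 ± 33.5, Bcl11a at 311 ± 17.5, Fezf2 at 260 ± 79.1, Rorb at 233 ± 31.6 and Cux1 at 188 ± 9.30. Rorb thus stood in the fifth place in WT and the eighth in SCA1 KI, and Cux1 in the last place in both. Neighbours in this order overlapped in range, except Lmo3 and Bcl11b, and Rorb and Cux1.

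**Figure D1:**
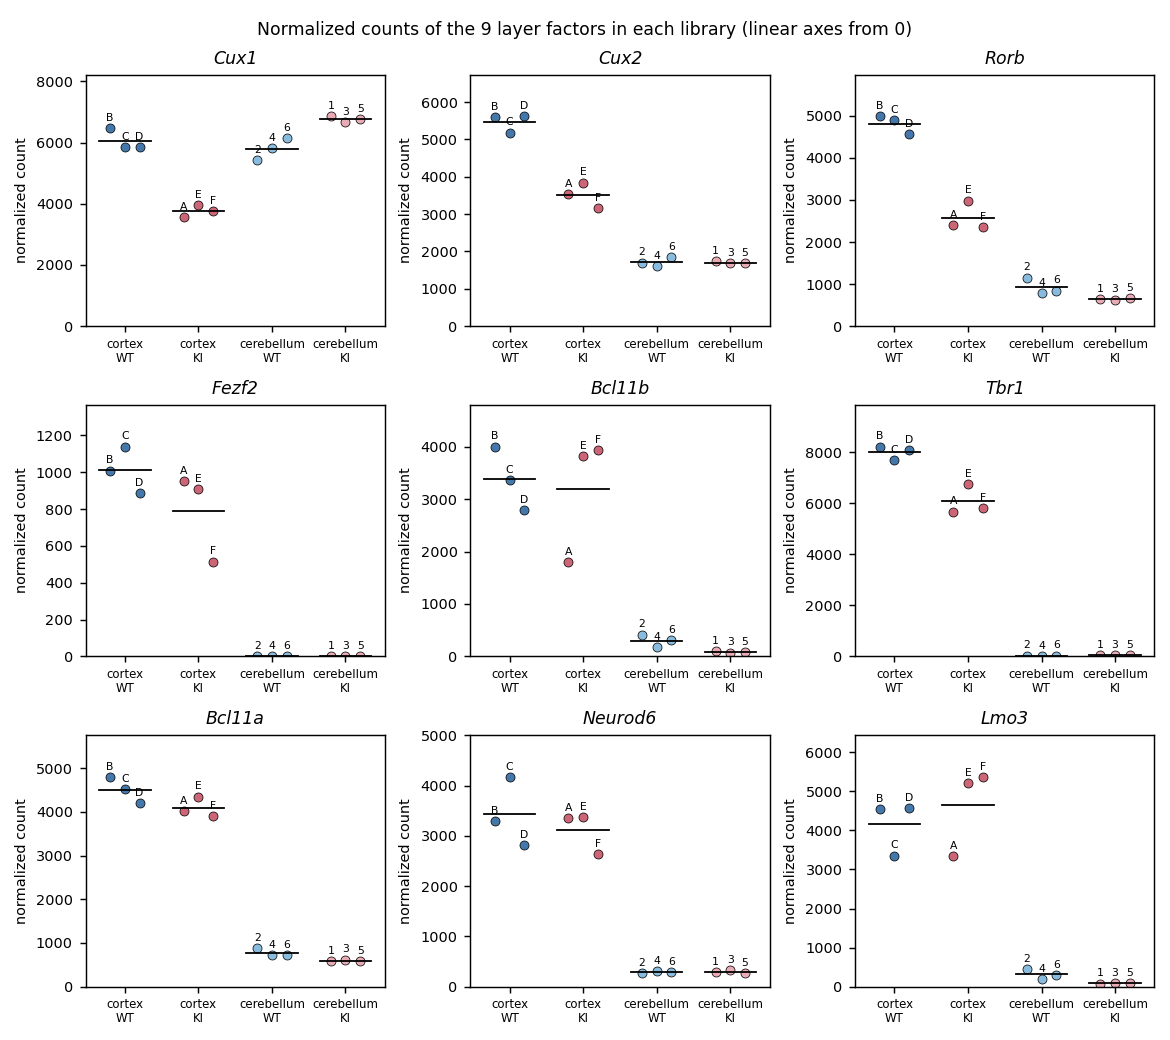
Normalized counts of each of the 9 genes (linear vertical axes from 0) in the 12 libraries, by region and genotype, with each library's name above its point and a line at the group mean (n = 3). In the cortex the SCA1 KI points of Cux1, Cux2, Rorb and Tbr1 lie below every WT point, whereas for the other 5 genes the genotypes overlap there.

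The first comparison asked whether the layer factors differed between SCA1 KI and WT cortex. Cux1, Cux2 and Rorb were lower in the SCA1 KI cortex, by 1.61-fold, 1.56-fold and 1.87-fold on the log2(normalized count + 1) scale, and 0 members were higher by limma, also at an unadjusted p under 0.05, by edgeR and by DESeq2. Thus 3 of 9 members were lower, where 10.8% of all tested genes were lower, 4.82% were higher and 15.6% passed in either direction (741 genes higher and 1661 lower, or 1034 and 1325 once dependence on length and GC content of the transcripts had been taken out of each library). The 3 genes are those that mark the upper layers, and the deep-layer and broadly expressed members did not pass by limma over all 12 libraries. This split depended on the fit, because the deep-layer factor Tbr1 was also lower by edgeR, by DESeq2 and by limma on the cortex libraries alone. The median LFC of the 9 members was −0.40, against −0.0028 over all tested genes.

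Cux1, a homeodomain factor that shapes dendrites and spines of upper-layer neurons, read 6464, 5847 and 5852 normalized counts in WT libraries B, C and D and 3572, 3945 and 3760 in SCA1 KI libraries A, E and F. Every SCA1 KI library lay below every WT library, and the highest library of each genotype was 1.10-fold to 1.11-fold above its lowest. The LFC was −0.69 (standard error 0.063, adjusted p = 2.16e-05 from limma). Cux1 lies at chr5:136248135-136567490 (GRCm38, minus strand) and shares 394 exonic bases with the antisense gene Gm16599. Its locus also encodes a Golgi protein, CASP, from shared exons, and reads of the transcripts of this locus were counted together.

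Cux2, its paralog at chr5:121856366-122050102 (minus strand), read 5599, 5183 and 5615 in the WT and 3536, 3843 and 3168 in the SCA1 KI cortex. The groups did not overlap. The LFC was −0.64 (standard error 0.075, adjusted p = 1.23e-04). The ratio of Cux1 to Cux2 within a library, which does not depend on the size factor, was 1.04 to 1.15 in WT and 1.01 to 1.19 in SCA1 KI, so that the genotypes overlapped in it.

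Rorb, a nuclear receptor that marks the layer IV neurons receiving thalamic input (chr19:18930605-19111196, minus strand), read 4986, 4900 and 4565 in the WT and 2405, 2986 and 2358 in the SCA1 KI cortex. It was the member with the most negative LFC in the cortex, at −0.91 (standard error 0.13, adjusted p = 3.75e-04), and again the groups did not overlap. All 3 of these calls held when any 1 of the 12 libraries was left out, with LFCs of −0.72 to −0.64 for Cux1, −0.71 to −0.57 for Cux2 and −1.02 to −0.85 for Rorb.

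Tbr1, a T-box factor of early-born layer VI neurons (chr2:61802930-61814114, plus strand), read 8222, 7682 and 8102 in the WT and 5676, 6747 and 5808 in the SCA1 KI cortex. These ranges did not overlap, but the LFC of −0.40 (standard error 0.13, adjusted p = 0.0561) missed the threshold. It passed with DESeq2 (LFC −0.40, adjusted p = 1.24e-04) and with edgeR (LFC −0.38, adjusted p = 0.00494) on the recovered reads, and in limma when the fit held the 6 cortex libraries alone (adjusted p = 0.0171). The groups did not overlap for 4 of 9 members, Cux1, Cux2, Rorb and Tbr1, whereas 30.9% of all tested genes had groups that did not overlap.

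Ratios of upper-layer to deep-layer factors within a library were compared for 3 pairs. Rorb to Tbr1 was 0.564 to 0.638 in the WT libraries and 0.406 to 0.442 in the SCA1 KI libraries. Cux2 to Tbr1 was 0.675 to 0.693 in the WT and 0.545 to 0.623 in the SCA1 KI libraries. Both ratios have Tbr1 as the deep-layer factor, and neither overlapped between the genotypes. Cux2 to Fezf2 did overlap, at 4.55 to 6.33 in the WT and 3.72 to 6.16 in the SCA1 KI libraries. Other pairs of an upper-layer with a deep-layer factor, such as those with Bcl11b, were not compared. No test of the ratios was made.

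Fezf2, a zinc finger factor that directs layer V neurons to subcerebral targets (chr14:12342094-12348189, minus strand), read 1009, 1139 and 887 in the WT and 951, 910 and 514 in the SCA1 KI cortex. Library F was low and the other SCA1 KI libraries lay within the WT range. The LFC was −0.40 (standard error 0.31, adjusted p = 0.420), with an interval (95%) of −1.06 to 0.27, and it was −0.11 without library F.

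Bcl11b, a zinc finger factor that acts downstream of Fezf2 in layer V and also marks striatal projection neurons (chr12:107910403-108003602, minus strand), read 4001, 3358 and 2795 in the WT and 1801, 3825 and 3942 in the SCA1 KI cortex. Library A was low and the other SCA1 KI libraries were within or near the WT range, with an LFC of −0.16 (standard error 0.31, adjusted p = 0.781) that turned to 0.21 without library A and was −0.027 without library B. The striatal sum was highest among WT libraries in B and lowest among all 6 in A, the libraries in which Bcl11b was highest among WT and lowest of all 6, but A was also the lowest in the thalamus, hippocampus, astrocyte, endothelium, microglia, Purkinje cell and granule cell lists. The part of these lists in the values of Bcl11b was not tested. The cortical interval of the LFC of Bcl11b was −0.84 to 0.53.

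Bcl11a (chr11:24078056-24174123, plus strand), a zinc finger factor of upper-layer and deep neurons whose exons share 316 bases with the antisense gene 4930538E20Rik, read 4804, 4523 and 4210 in the WT and 4027, 4351 and 3904 in the SCA1 KI cortex. The groups overlapped, and the LFC of −0.14 (standard error 0.085, adjusted p = 0.299) had an interval of −0.32 to 0.05. The ratio of Bcl11b to Bcl11a was 0.664 to 0.833 in the WT libraries, and in SCA1 KI it was 0.447 in library A and 0.879 and 1.01 in E and F.

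Neurod6 (chr6:55677822-55681263, minus strand) read 3298, 4173 and 2811 in the WT and 3360, 3374 and 2638 in the SCA1 KI cortex, an LFC of −0.12 (standard error 0.14, adjusted p = 0.592, interval −0.42 to 0.17). Lmo3 (chr6:138362918-138581968, minus strand) read 4555, 3358 and 4578 in the WT and 3349, 5215 and 5374 in the SCA1 KI cortex, an LFC of 0.14 (standard error 0.26, adjusted p = 0.755, interval −0.41 to 0.70). Both genes overlapped widely between the genotypes, and both changed sign without WT library C. Lmo3 was thus the one member whose cortical LFC lay above 0, and 8 of 9 lay below it.

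**Figure D2:**
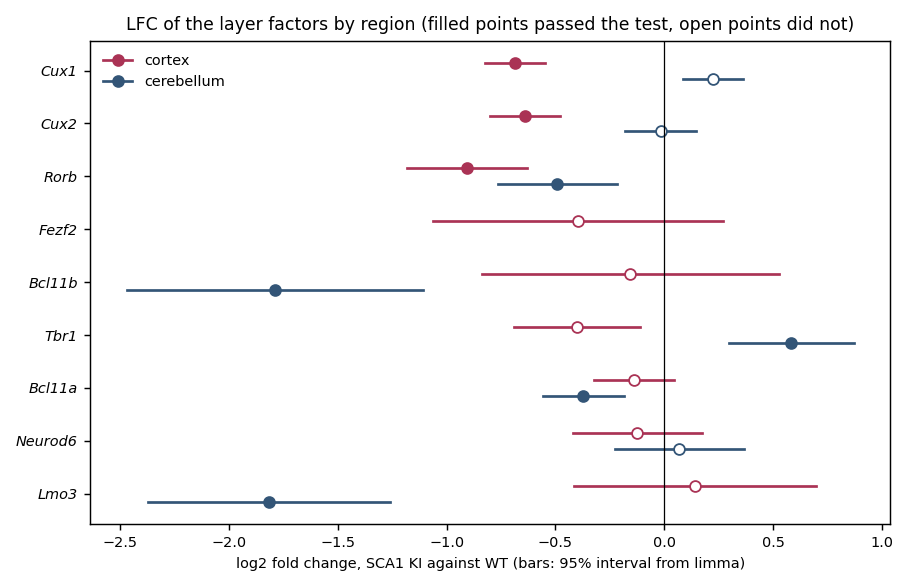
LFC of SCA1 KI against WT for each gene (horizontal axis, log2 units) in the cortex and the cerebellum, with bars for the interval (95%) from limma. The cortical points of Cux1, Cux2 and Rorb lie between −0.91 and −0.64, and the cerebellar points of Bcl11b and Lmo3 at −1.79 and −1.82. Fezf2 has no cerebellar point because its libraries there held at most 1 read.

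Other genes of cortical layers were set beside the 9 members from a list of transcription factors and a list of markers with other functions. The counts in the cortex stand beside the 10.8% of all tested genes that were lower and the 4.82% that were higher. Of the 22 other transcription factors, 5 were lower in the SCA1 KI cortex (4 by edgeR and 6 by DESeq2), 0 were higher by limma, edgeR, DESeq2 or at an unadjusted p under 0.05, and 17 did not pass, with a median LFC of −0.15. Those lower were Lmo4 (LFC −0.56, adjusted p = 0.00217), a LIM-only cofactor, Id2 (−0.42, adjusted p = 0.00335), an inhibitor of helix-loop-helix factors, Foxp1 (−0.42, adjusted p = 0.00987), a forkhead factor, Sox5 (−0.25, adjusted p = 0.0214), a deep-layer factor, and Mef2c (−0.30, adjusted p = 0.0310), an activity-regulated factor. Tle4, a layer VI co-repressor, had an LFC of −0.04 (adjusted p = 0.842). Without library B 3 were lower (Lmo4, Id2 and Foxp1) and Zfpm2 was higher, without A 4 were lower and without F 3, and 0 were higher without A or F.

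Of the 21 other layer markers in the table, 12 were lower in the SCA1 KI cortex (13 by edgeR and by DESeq2) and 0 were higher by any of these tools or at an unadjusted p under 0.05, with a median LFC of −0.63. Rasgrf2 (LFC −0.84, adjusted p = 0.0212), Otof (1424, 1073 and 1070 in WT and 466, 753 and 577 in SCA1 KI, adjusted p = 0.00213) and Calb1 (−0.44, adjusted p = 0.0190), which mark upper layers, were among them, as were the layer IV markers Rspo1 (−2.72, adjusted p = 2.67e-04) and Scnn1a (−0.75, adjusted p = 0.0275). Rspo1, which encodes a secreted activator of Wnt signalling, read 715, 681 and 575 in the WT and 110, 95.1 and 90.1 in the SCA1 KI cortex. Some markers of layers V and VI were lower too, with Pcp4 at −0.63 (adjusted p = 2.71e-05) and Parm1 at −0.62 (adjusted p = 0.00158). So were Rbp4 at −0.68 (adjusted p = 0.0129), Fam84b at −0.63 (adjusted p = 0.0297) and Cplx3 at −1.04 (adjusted p = 0.0454). Whrn (−0.87, adjusted p = 1.43e-05) and Kcnh5 (−1.21, adjusted p = 0.00198) were the others that were lower. Lamp5 read 10694, 12540 and 12211 in the WT and 3401, 3107 and 2870 in the SCA1 KI cortex, but its LFC of −1.92 did not pass (standard error 0.69, adjusted p = 0.0764). That standard error is shared with the cerebellum, where Lamp5 read 861, 53.7 and 133 in the WT libraries. The layer VI marker Ntsr1, a neurotensin receptor, lay the other way, at 386, 244 and 339 in the WT and 663, 646 and 474 in the SCA1 KI cortex. Its groups did not overlap either, and its LFC of 0.89 did not pass (standard error 0.60, adjusted p = 0.349). This standard error too is shared with the cerebellum, where Ntsr1 read 31.0, 2.44 and 6.99 in the WT libraries. The layer VI marker Syt6 (LFC 0.12, adjusted p = 0.851) and the layer V marker Crym (LFC −0.06, adjusted p = 0.919) did not pass. Nor did other markers of layer VI. Rprm (LFC 0.40, adjusted p = 0.267) and Nxph4 (0.56, adjusted p = 0.317) lay above 0. Hs3st4 (−0.39, adjusted p = 0.421) and Ctgf (−0.48, adjusted p = 0.276) lay below it. Without library B 9 of these markers were lower, without A 10 and without F 8, and 0 were higher.

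**Figure D3:**
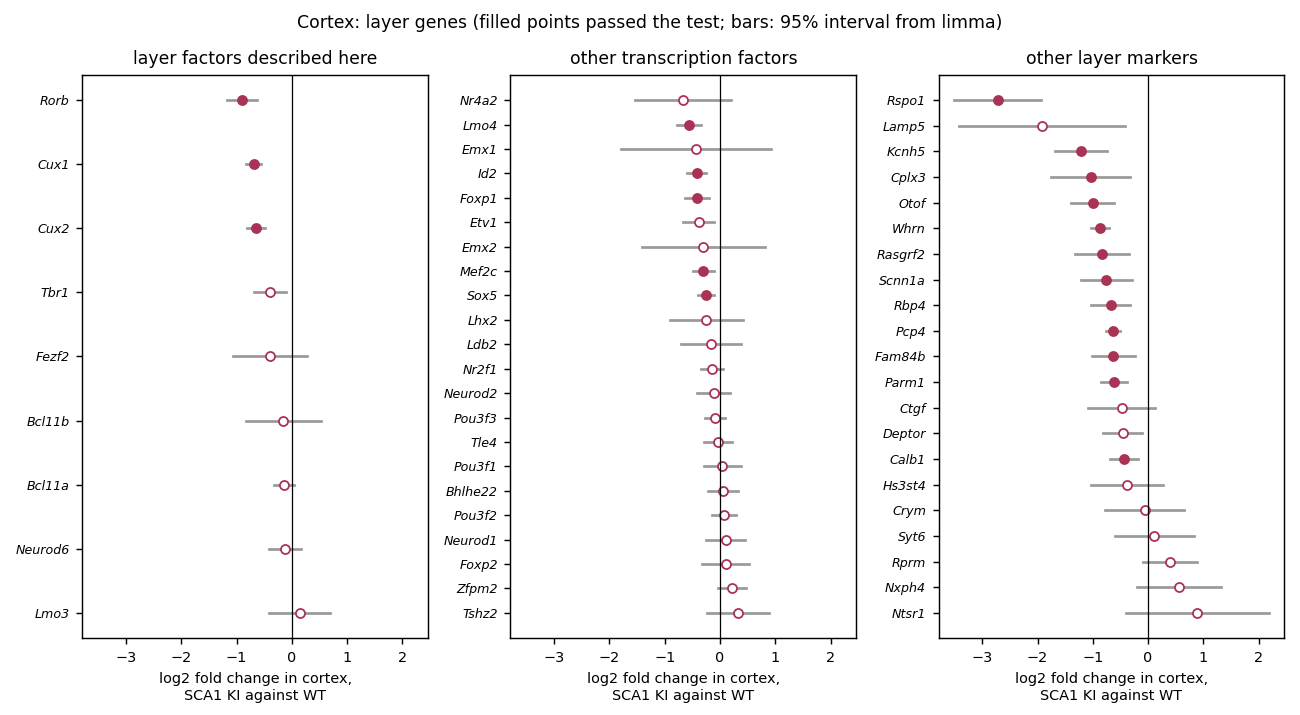
LFC of SCA1 KI against WT cortex (horizontal axes, log2 units) for the 9 factors, the 22 other transcription factors and the 21 other layer markers, sorted by LFC, with bars for the interval (95%) from limma and filled points for genes that passed the test. All filled points, 3 of 9, 5 of 22 and 12 of 21, lie below 0.

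General neuronal genes moved in the same libraries. Of 6 general genes of cortical excitatory neurons, 4 were lower in the SCA1 KI cortex, namely Camk2a (LFC −1.12, adjusted p = 1.40e-05), Arpp21 (−0.61, adjusted p = 4.79e-05), Slc17a7 (−0.50, adjusted p = 0.00815), which encodes the vesicular glutamate transporter VGLUT1, and Nrgn (−0.70, adjusted p = 0.0179). The sum of all 6 ran from 345770 to 372828 in the WT and from 189127 to 219221 in the SCA1 KI libraries. Of 8 pan-neuronal genes, 4 were lower (Snap25, Rbfox3, Syt1 and Nefl) and 1, Stmn2, was higher. Without library B or without A, Snap25, Rbfox3 and Syt1 were lower and 0 were higher. The part of these general genes in the values of Cux1, Cux2 and Rorb was not tested.

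Most markers of tissue next to the cortex did not pass, and the counts stand beside the 15.6% of all tested genes that passed in either direction. Of the 7 midbrain genes tested, 2 were higher in the SCA1 KI cortex (4 by DESeq2) and 0 lower by any of the tools, Pou4f1 (3.57, 2.21 and 6.83 in WT and 372, 225 and 217 in SCA1 KI) and Tal1 (121, 115 and 125 in WT and 991, 509 and 497 in SCA1 KI). The sum of the 9 midbrain genes in the table was 394 to 531 in WT and 984 to 1771 in SCA1 KI. Of the 12 striatal genes, 2 were lower (Ppp1r1b and Penk), or 1 by edgeR and by DESeq2. Without library B or without A, Ppp1r1b was lower and Six3 higher. Of the 8 hippocampal genes 1 was lower, Wfs1. Of 8 thalamic genes, Shox2 was higher, listed at 0 in every WT library, and Rora lower. Among 12 genes of forebrain inhibitory neurons, Pvalb and Gad1 were lower, of which Gad1 did not pass without B or without A. Of 5 astrocyte genes 3 were lower, and of 6 Purkinje cell genes 3 were lower and 1 higher. Some lists share genes. Calb1 counts both as an upper-layer marker and as a Purkinje cell gene, and Etv1 both as a layer transcription factor and as a granule cell gene. Of the 5 genes each of the oligodendrocyte, microglia and endothelium lists, the 4 of the choroid plexus and the 7 of granule cells, 0 passed by limma or edgeR, 1 endothelial and 1 granule cell gene had an unadjusted p under 0.05, and the latter passed by DESeq2. What part the genes of these lists had in the cortical values of the layer factors was not tested.

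The second comparison asked whether the same factors differed between SCA1 KI and WT cerebellum, where most of them are not markers of a layer. Lmo3, Bcl11b, Bcl11a and Rorb were lower in the SCA1 KI cerebellum and Tbr1 was higher. Thus 4 of 9 members were lower, where 4.44% of all tested genes were lower, and 1 was higher, where 0.917% were higher (5.36% in either direction, 141 genes higher and 683 lower, or 502 and 576 after the same correction for length and GC content). For 6 of 9 members the groups did not overlap, against 31.8% of all tested genes. The median LFC of the 8 members with a fold was −0.19, against −0.0049 over all tested genes.

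Lmo3 read 449, 195 and 285 in WT libraries 2, 4 and 6 and 73.3, 84.5 and 90.0 in SCA1 KI libraries 1, 3 and 5. No SCA1 KI library reached the WT range, in which library 2 was high and library 4 low, a spread of 2.30-fold. The LFC was −1.82 (standard error 0.26, adjusted p = 0.00123), or 3.53-fold lower, and without library 2 it was −1.51 (adjusted p = 0.00206).

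Bcl11b read 415, 177 and 310 in the WT and 93.5, 70.7 and 81.3 in the SCA1 KI cerebellum. The WT libraries had the same order as for Lmo3 and again a wide spread, of 2.35-fold. The LFC was −1.79 (standard error 0.31, adjusted p = 0.00501), or 3.46-fold lower, and without library 2 it was −1.51 (adjusted p = 0.0198).

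Bcl11a read 887, 716 and 723 in the WT and 587, 616 and 586 in the SCA1 KI cerebellum, and its LFC was −0.37 (standard error 0.085, adjusted p = 0.0231). Rorb read 1156, 787 and 844 in the WT and 650, 630 and 675 in SCA1 KI, and its LFC was −0.49 (standard error 0.13, adjusted p = 0.0410). Both were highest in WT library 2, and neither passed without it (Bcl11a LFC −0.27, adjusted p = 0.0700, and Rorb LFC −0.32, adjusted p = 0.111).

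Tbr1 was low in the cerebellum, at 32.0, 23.2 and 25.6 in the WT and 46.3, 33.6 and 42.6 in the SCA1 KI libraries, which did not overlap. In the cerebellum it marks glutamatergic neurons of the deep nuclei during development. The LFC of 0.58 (standard error 0.13, adjusted p = 0.0220) was the opposite in sign to that of the cortex. It did not pass with edgeR (adjusted p = 0.0985) or DESeq2 (adjusted p = 0.104).

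Cux1 read 5425, 5825 and 6157 in the WT and 6852, 6680 and 6766 in the SCA1 KI cerebellum, groups that did not overlap, with an LFC of 0.22 (standard error 0.063) that missed the threshold (adjusted p = 0.0609). Cux2 read 1704, 1611 and 1852 in the WT and 1737, 1682 and 1682 in the SCA1 KI cerebellum, with an LFC of −0.02 (adjusted p = 0.953) with an interval of −0.18 to 0.15. Neurod6 read 262, 304 and 280 in the WT and 292, 325 and 272 in the SCA1 KI cerebellum, with an LFC of 0.07 (adjusted p = 0.867) with an interval of −0.23 to 0.37. Fezf2 had 1, 0 and 1 reads in the WT libraries and 0 in each SCA1 KI library, so no fold is given.

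The cerebellar calls depended on the fit for all but Bcl11b and Lmo3. With the cerebellar libraries fitted on their own, 2 members passed, Bcl11b (adjusted p = 0.0163) and Lmo3 (adjusted p = 0.0129). Without SCA1 KI library 1 or without SCA1 KI library 5 the same pair passed, without WT library 2 or SCA1 KI library 3 Bcl11b, Lmo3 and Tbr1, and without WT library 6 Bcl11b, Lmo3 and Bcl11a. Cerebellar Rorb also did not pass without WT cortex library B, C or D (limma adjusted p = 0.0538, 0.0615 and 0.0504), which left its LFC unchanged.

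Genes that mark the thalamus and midbrain were set beside these values. The order of WT libraries of Lmo3 and Bcl11b was highest in 2, then 6, then 4. It held for 5 of 9 layer factors, counting Lmo3 and Bcl11b, which set it, and for 23.0% of all tested genes. It also held for 4 of 8 thalamic genes, 5 of 9 midbrain genes, 13 of 21 other layer markers and 9 of 22 other transcription factors. So it did for 5 of 5 oligodendrocyte genes and 4 of 5 microglia genes, but for 0 of 7 granule cell genes. Slc17a6 and Tcf7l2 were chosen from the thalamic genes with this order after their values were seen. Slc17a6, which encodes the vesicular glutamate transporter VGLUT2, read 6803, 2878 and 3911 in WT libraries 2, 4 and 6 and 982, 1117 and 1310 in the SCA1 KI libraries (LFC −1.91, or −1.57 without library 2). Tcf7l2, a thalamic and midbrain factor, read 2404, 1480 and 2051 in the WT and 223, 210 and 249 in the SCA1 KI libraries (LFC −3.09, or −2.94 without library 2). Other thalamic genes went otherwise. Calb2, which encodes the calcium-binding protein calretinin, read 10617, 14150 and 13891 in the WT and 22040, 20744 and 21007 in the SCA1 KI libraries, higher in each SCA1 KI library but not past the test (LFC 0.73, adjusted p = 0.462). Rora, a nuclear receptor related to Rorb, was lowest in library 2 among the WT libraries. Of the 8 thalamic genes 4 were lower in the SCA1 KI cerebellum (Tcf7l2, Shox2, Slc17a6 and Lef1) and 0 higher, and of the 7 midbrain genes tested 3 were lower (Pou4f1, Tal1 and Gata3). Of all tested genes 4.44% were lower there. Lef1 and Gata3 did not pass without library 2. The sum of the midbrain list was 1482 to 1864 in WT and 925 to 1219 in SCA1 KI, and that of the thalamic list, most of it Rora and Calb2, which the cerebellum itself carries, was 45051 to 46803 in WT and 46670 to 47167 in SCA1 KI. The part of these genes in the values of the layer factors was not tested. Genes of the cortex did not all read alike in the cerebellar libraries. Emx1 was at most 5.81 normalized counts in each of them, whereas Emx2, a related factor, read 53.9, 13.4 and 21.0 in the WT and 1.69, 0 and 3.87 in the SCA1 KI cerebellum. Lamp5 read 861, 53.7 and 133 in the WT and 84.3, 188 and 154 in SCA1 KI, high in library 2 alone. Nrgn, which encodes a calmodulin-binding protein of forebrain neurons, read 2687, 1777 and 2480 in the WT and 155, 96.8 and 118 in SCA1 KI, with no overlap.

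**Figure D4:**
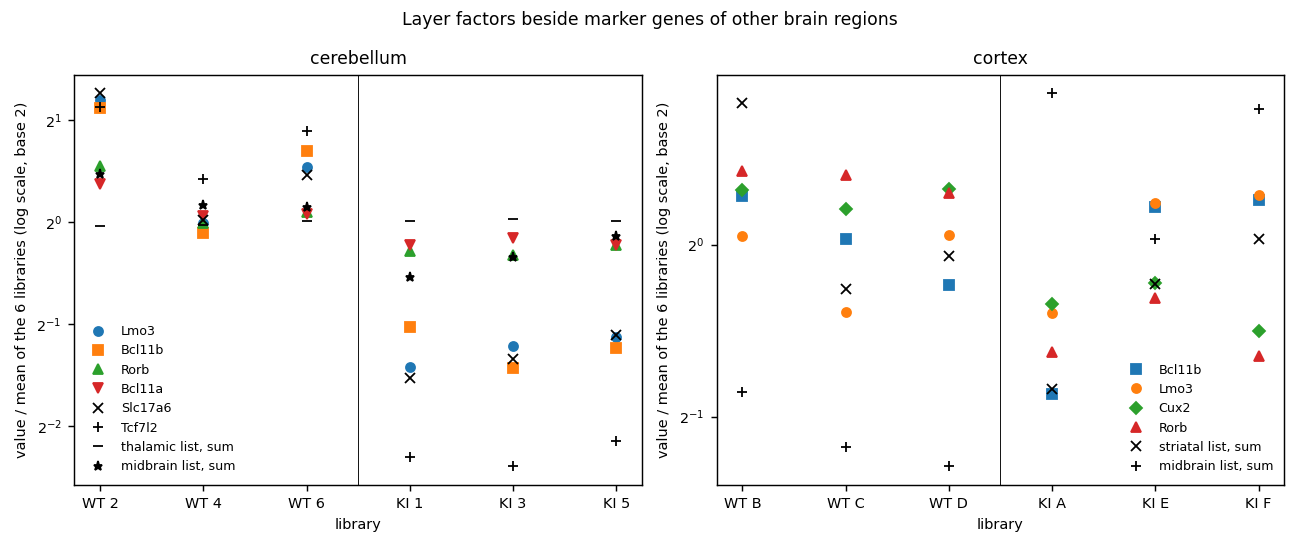
Layer factors (coloured) and marker genes or summed marker lists (black) in each library, as the value divided by its mean over the 6 libraries of the region (vertical axes, log scale of base 2). In the cerebellum Lmo3, Bcl11b, Slc17a6 and Tcf7l2 are high in WT library 2 and low in the 3 SCA1 KI libraries, whereas the thalamic sum stays close to 1 in each library, and in the cortex Bcl11b is lowest in library A, as is the striatal sum.

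Of the 22 other transcription factors, 7 were lower and 1 higher in the SCA1 KI cerebellum, where 4.44% of all tested genes were lower and 0.917% higher. Lhx2, a LIM homeodomain factor of the cortex, read 153, 69.6 and 85.0 in the WT and 14.3, 5.49 and 12.6 in the SCA1 KI libraries (LFC −3.15, adjusted p = 7.17e-05), Ldb2 had an LFC of −2.13 (adjusted p = 2.92e-04) and Pou3f1 of −1.15 (adjusted p = 7.75e-04). Emx2, Foxp2, Pou3f2 and Tshz2 were the others that were lower, and Zfpm2 (LFC 0.45, adjusted p = 0.0426) the one that was higher. Of the 21 other layer markers 6 were lower and 0 higher, with Rasgrf2 at −2.48 (adjusted p = 4.10e-05), Hs3st4 at −2.89 (adjusted p = 1.16e-04) and Kcnh5 at −2.24 (adjusted p = 6.88e-05). Lhx2, Ldb2, Pou3f1, Rasgrf2, Hs3st4 and Kcnh5 were each highest in WT library 2, and each passed without it, with LFCs of −2.82, −1.80, −0.97, −2.13, −2.45 and −1.94. Without that library 5 of the 22 other transcription factors were lower and 0 higher, and 4 of the 21 markers were lower and 1, Rprm, higher. Nrgn and Camk2a were lower among the 6 general excitatory genes, 3 of 12 striatal genes (Tac1, Six3 and Drd1a), 2 of 12 genes of inhibitory neurons (Vip and Sst), and 1 gene each of the hippocampus, astrocyte and microglia lists. Drd1a and the microglial gene did not pass without library 2, and Dlx2 of the inhibitory neuron list was then higher. Of the 7 granule cell genes 0 passed by limma, edgeR or DESeq2 or had an unadjusted p under 0.05, as was the case for the 5 endothelial and 4 choroid plexus genes. Of the 8 pan-neuronal genes 0 passed by limma and 1 by edgeR and by DESeq2, of the 6 Purkinje cell genes 0 by limma and edgeR, 1 by DESeq2 and 1 by limma without library 2, and of the 5 oligodendrocyte genes 0 by limma and edgeR and 3 by DESeq2, with 2, 2 and 4 at an unadjusted p under 0.05.

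The third comparison tested whether the effect of genotype differed between cortex and cerebellum, as the cortical LFC minus the cerebellar LFC. It passed for 5 of the 8 members with a value, against 8.15% of all tested genes. Cux1 (difference −0.91, standard error 0.089, adjusted p = 2.17e-04), Tbr1 (−0.98, standard error 0.19, adjusted p = 0.00666) and Cux2 (−0.62, standard error 0.11, adjusted p = 0.00357) had a more negative LFC in the cortex than in the cerebellum, where 4.89% of all genes differed in this direction. Lmo3 (1.96, standard error 0.36, adjusted p = 0.00566) and Bcl11b (1.63, standard error 0.44, adjusted p = 0.0400) had a more negative LFC in the cerebellum, where 3.26% differed in this direction. The difference of Bcl11b did not pass without any one of 9 libraries (lowest value 1.36, adjusted p = 0.0844, without WT cerebellar library 2).

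Rorb was lower in SCA1 KI in both regions, but in the cerebellum its call depended on the fit. Its regional difference of −0.42 did not pass (standard error 0.18, adjusted p = 0.197, interval −0.80 to −0.03). Without WT cerebellar library 2 it was −0.58 and passed (adjusted p = 0.0192). Bcl11a (0.23, adjusted p = 0.301, interval −0.03 to 0.49) and Neurod6 (−0.19, adjusted p = 0.633, interval −0.61 to 0.23) did not pass.

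The 2 regions were compared within each genotype to show how far the factors mark the cortex, with the limit that the cerebellar libraries belong to the earlier data set. In WT, 8 of 9 members were higher in the cortex, where 31% of all tested genes were higher and 61.7% passed in either direction. The same 8 had groups that did not overlap, as did 69.9% of all tested genes. The exception was Cux1, at 6055 ± 355 (SD, n = 3) in the cortex and 5802 ± 367 in the cerebellum (LFC 0.06, adjusted p = 0.405). Tbr1 had an LFC of 8.17 (standard error 0.13, adjusted p = 7.58e-13), Lmo3 of 3.81, Neurod6 of 3.58, Bcl11b of 3.56, Bcl11a of 2.54, Rorb of 2.39 and Cux2 of 1.67. Fezf2 had 2657 reads over the WT cortex libraries and 2 over the WT cerebellum libraries, a ratio of 1404 after normalization with an exact counting interval of 388 to 11601, which covers counting error only.

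In SCA1 KI, 8 of 9 members were higher in the cortex, where 32% of all tested genes were higher, and Cux1 was lower, at 3759 ± 186 in the cortex and 6766 ± 86.1 in the cerebellum (LFC −0.85, standard error 0.063, adjusted p = 8.61e-08), where 30.5% were lower and 62.4% passed in either direction. All 9 members had groups that did not overlap, as did 74.3% of all tested genes. Fezf2 had 2435 reads over the SCA1 KI cortex libraries and 0 over the cerebellar ones, which made it at least 959-fold higher, at a floor of 3 reads over the group. Tbr1 had an LFC of 7.19, Lmo3 of 5.77, Bcl11b of 5.19 and Cux2 of 1.04.

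Per kilobase of exon, the order in the cerebellum was not that of the cortex. In WT cerebellum Cux1 was highest at 290 ± 18.3 normalized counts per kilobase, then Cux2 at 171 ± 12.1, Neurod6 at 131 ± 9.84, Rorb at 83.9 ± 17.9, Lmo3 at 60.4 ± 25.1, Bcl11a at 58.8 ± 7.32, Bcl11b at 37.1 ± 14.7, Tbr1 at 4.91 ± 0.823 and Fezf2 at 0.227 ± 0.201. The ranges of Rorb, Lmo3 and Bcl11a overlapped from neighbour to neighbour. In SCA1 KI cerebellum the order was Cux1 at 338 ± 4.30, Cux2 at 169 ± 3.19, Neurod6 at 138 ± 12.4, Rorb at 58.8 ± 2.01, Bcl11a at 45.3 ± 1.29, Lmo3 at 16.1 ± 1.66, Bcl11b at 10.1 ± 1.41 and Tbr1 at 7.45 ± 1.19, with no overlap between neighbours and Fezf2 at 0.

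For each member, the 2 genes most like it over the 6 cortex libraries were taken by Pearson's r of log2(normalized count + 1) among 12583 genes whose mean in the cortex was 100 normalized counts or more. These values describe 6 libraries of 2 genotypes, so a shared difference between the genotypes, or a shared library that stands apart, enters each of them. Cux1 was most like Erbb4 (r = 0.999), the neuregulin receptor, and Cntnap1 (r = 0.998). Cux2 was most like Chrm1 (r = 1.00), a muscarinic acetylcholine receptor, and Gm20939 (r = 0.997), and Rorb like Tppp (r = 0.999) and Dagla (r = 0.999), which makes an endocannabinoid. Tbr1 was most like Rasgef1a (r = 0.998) and Shank3 (r = 0.996), a scaffold of the postsynaptic density. For Bcl11b they were Gm17066 and Hmbox1 (both r = 0.994), for Fezf2 Zcchc6 (r = 0.991) and C2cd2 (r = 0.981), for Bcl11a Tmem104 (r = 0.985) and Dhx33 (r = 0.984), for Neurod6 Vopp1 (r = 0.982) and Map2k4 (r = 0.977), and for Lmo3 Zfp488 (r = 0.987) and Nr2f2 (r = 0.983).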

How the data were processed

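Poly-adenylated RNA of 12 libraries was analysed, 3 in each of 4 groups of region and genotype. Per the labels and the study's methods, the authors used STAR for alignment to mm10, featureCounts for the reads of each gene and DESeq2 for normalization (versions and strand setting not given in the sources used here). The deposited signal is the read count divided by a size factor, and 100% of values in each library came out as whole reads (tolerance 0.01). The table had 0 columns of no sample.

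log2(normalized count + 1) was fitted in R 4.3.3 by limma 3.58.1 (moderated variances that follow the mean), with 4 group means, for the 15369 of 15759 entries with a mean of at least 10. p-values rest on the spread between the 3 libraries of a group, as a single value per gene shared by all 4 groups. The standard error of a gene is therefore the same in both regions, and its scatter in either region enters the p-values of the other. Pairs of libraries within a group were further apart than sampling noise (chi-square divided by genes, 7.30 to 35.6). Alternatives were edgeR 4.0.16 (quasi-likelihood test) and DESeq2 1.42.0 on the recovered reads, 0.5 or 5 as the pseudocount, means of 100 or more or all genes, separate fits of each region, centring on library medians, correction for length and GC content of transcripts (14639 genes), no LFC limit, a limit of 1, and leaving out each of the 12 libraries. limma, edgeR and DESeq2 were tested on simulated counts.

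The members, gene lists and tests were chosen with earlier results of these data known. Genes named were the 9 members, list genes that a result turns on or with the smallest p as examples, 2 genes most like each member, overlapping genes, and Atxn1. A few listed genes were left out of the lists and their counts and are not reported here. Where both groups lay at or under 3 reads no fold is given. Gene coordinates and exon lengths are from GENCODE vM21 (GRCm38, 15009 of 15758 symbols matched) and promoters from RefSeq (GRCm38.p6). Reads shared with antisense genes were not separated.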

Additional observations from a re-analysis of the deposited data

Results flagged for a closer look

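The effect of genotype differed between cortex and cerebellum for 5 of the 8 members with a value, against 8.15% of all tested genes. The limma test was of the difference itself (cortical LFC minus cerebellar LFC). Genotypes did not overlap for 30.9% of all tested genes in the cortex and 31.8% in the cerebellum. Cux1 (−0.91, adjusted p = 2.17e-04) had 3 of 3 SCA1 KI libraries below all WT libraries in the cortex and 3 of 3 above them in the cerebellum. The cerebellar LFC of Cux1 on its own missed the threshold (limma adjusted p = 0.0609). Tbr1 (−0.98, adjusted p = 0.00666) showed the same opposite directions as Cux1, at a cerebellar level of 23.2 to 46.3 normalized counts. The cortical LFC of Tbr1 missed the threshold by limma (adjusted p = 0.0561). In the cerebellum Tbr1 did not pass by edgeR (adjusted p = 0.0985) or DESeq2 (adjusted p = 0.104). Cux2 differed by −0.62 (adjusted p = 0.00357), with all SCA1 KI libraries lower in the cortex and overlapping groups in the cerebellum. Lmo3 (1.96, adjusted p = 0.00566) and Bcl11b (1.63, adjusted p = 0.0400) had all SCA1 KI libraries lower in the cerebellum and overlapping groups in the cortex. The difference of Bcl11b did not pass without any one of 9 libraries.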

How the results depend on the processing

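No paired analysis was possible because the deposited columns do not carry the replicate numbers of the labels. Over the alternatives and the fits that left out 1 library, 923 of 981 values kept their direction and their side of the threshold, 41 no longer passed, 10 newly passed and 7 changed sign, and the cause was not tested for those that changed. This total includes the comparisons between regions, most of them with large LFCs, and fits without a library of the other region, which cannot change an LFC. For SCA1 KI against WT cerebellum with a library left out, 79 values kept both, 16 no longer passed and 1 changed sign. In the cortex, 3 members passed, 3 to 4 with a library left out, and 0 at an absolute LFC over 1. In the cerebellum, 5 passed, 2 to 5 with a library left out, 2 with the region fitted on its own and 2 at an absolute LFC over 1. The regional difference passed for 5 members, for 4 to 5 with a library left out and for 2 at an absolute LFC over 1. For the other gene lists, leaving out library B, A, F or 2 was chosen after seeing the data, and 56 of 64 counts of genes that passed stayed within 1.5 times. Within WT, 8 members differed between the regions with any library left out, and within SCA1 KI 9 did.

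The values that changed sign were small in the full fit. In the cortex, Bcl11b went from −0.16 to 0.024 after correction for length and GC content and ranged from −0.35 to 0.21 with a library left out, Neurod6 from −0.26 to 0.028 and Lmo3 from −0.0070 to 0.36. In the cerebellum, Cux2 went from −0.02 to 0.0079 with centring and to 0.068 after that correction, and ranged from −0.063 to 0.037 with a library left out. Cux1 passed in the cerebellum after it (LFC 0.28, adjusted p = 0.0173), and Rorb no longer passed there with centring (LFC −0.47, adjusted p = 0.0520). Among genes that passed, the correction raised the share that were higher from 30.8% to 43.8% (cortex) and from 17.1% to 46.6% (cerebellum). With 3 libraries per group, intervals of the less even members, such as Bcl11b and Fezf2 in the cortex, span LFCs larger than those that passed for Cux1 and Cux2.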
